A study of Mus musculus with 3 samples.

Results

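Mouse neurons depolarised with KCl were compared after 1 h and after 6 h, to describe which RNAs fell, which persisted and which rose between those times. The neurons came from the medial ganglionic eminence (MGE), the ventral forebrain region that gives rise to many inhibitory interneurons, of embryonic day 14 embryos with a C57Bl/6 genetic background, and had been in culture for 10 days. All cultures, the unstimulated one included, had been silenced overnight from day 9 with TTX, which blocks sodium channels, and AP-5, which blocks NMDA receptors. The compared libraries, KCl 1 h and KCl 6 h, were 2 of the 3 in the series and had 55 mM extracellular KCl for 1 h or 6 h. The other library was unstimulated (0 h) and is given beside each result as the starting level. Whether animals were pooled is not stated in the labels, and potassium acts on every cell of a dish, so these are cultures under sustained depolarisation and not neurons firing in a circuit. With 1 library at each time, the spread among cultures is unknown and no test between the times was made. Each ratio has a 95% interval that covers counting error alone, and it compares these libraries.

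Depolarisation opens voltage-gated calcium channels, and calcium entry activates kinases that act on transcription factors already present in the cell, such as CREB and SRF. The first genes switched on, the immediate early genes, mostly encode transcription factors and feedback inhibitors and are known for RNAs with short lives. A later set of genes, many encoding secreted, synaptic or membrane proteins, follows and is in part driven by the early factors. Ribosome-depleted total RNA holds spliced RNA, read in exons, and RNA that still carries its introns. Introns are usually removed and degraded soon after they are made, so intronic reads are commonly used as a measure near to transcription, while exonic reads follow the accumulated RNA.

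The 3 libraries were of similar depth, with 8549377 to 8996897 uniquely mapped reads of which 24.3% to 28.9% were sense exonic and 20.9% to 24.4% sense intronic. Reads in introns were uneven: 3 genes held 17.3% to 21.9% of all intronic reads. The share of boundary reads, those across an exon-intron border, among boundary and splice reads was 7.79% at 1 h and 8.35% at 6 h. Of 21 compared markers of MGE-derived interneurons, 0 passed the 2-fold rule in exons, and Gad1, which makes GABA and overlaps another gene on the same strand, had 2787, 3457 and 5361 exonic reads at 0, 1 and 6 h. Pvalb, a marker of one mature interneuron class, had 1, 0 and 0 reads. Summed exonic markers, in RPM (reads scaled to a common effective library size) at 1 h and 6 h, were 610 and 685 for excitatory neurons, 3248 and 3745 for astrocytes and radial glia, 174 and 199 for the oligodendrocyte lineage, 37.4 and 46.0 for microglia, 23.1 and 27.9 for vascular and meningeal cells, and 261 and 234 for dividing cells. Some members of these lists, among them Neurod2, Emx1, Mog, Cx3cr1, P2ry12 and Cldn5, had 0 exonic reads in every library. The housekeeping gene Ppia and the sterol genes Hmgcs1 and Idi1 had 0 as well, so 0 counted reads need not mean that an RNA was absent. Other markers reached 20 exonic reads at 1 h or 6 h: 5 of 15 excitatory, 13 of 16 astrocyte and radial glia, and 6 of 14 oligodendrocyte markers. So did 1 of 12 microglia, 1 of 16 vascular and meningeal, and 11 of 17 dividing-cell markers. Across these marker lists Nes, an astrocyte and radial glia marker, was higher at 6 h (121, 125 and 236 reads, a ratio under 2 with mapped reads as the scale), as was Rorb on the excitatory list, and their part in the results was not tested. In these bulk samples fewer cells of a type and less RNA per cell cannot be told apart.

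Between 1 h and 6 h the exonic level of most genes moved little, and about as many genes were higher as lower. The deposited counts covered 25562 genes, and the 10137 that reached 20 exonic reads at 1 h or at 6 h were compared. A gene was called higher or lower when its scaled reads differed at least 2-fold and the interval excluded 1. By this rule 423 genes were higher at 6 h, which was 4.17% of those compared, and 469 were lower, which was 4.63%. A change of at least 5-fold was found for 46 higher and 34 lower genes, and at least 10-fold for 10 and 11. Introns, scaled by their own reads, were compared for 7734 genes, of which 547 were higher (7.07%) and 448 lower (5.79%). The split of these calls depended on the scaling. With all mapped reads as the scale, 348 genes were higher and 619 lower in exons, and 995 higher and 246 lower in introns, because this scale moves every intronic log2 ratio by 0.27 and every exonic one by -0.09.

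Most early transcription factors fell. Of 31 on the list, 28 had enough exonic reads, and 16 of these were lower at 6 h and 2 higher. Over all compared genes 4.63% were lower and 4.17% higher. Their median log2 ratio was -1.40, beside 0.01 over all compared genes. This list and the other gene lists were chosen with earlier results of these data known. Their shares beside those of all genes therefore describe the listed members only. Egr2, a zinc finger factor of the Egr family, had 3, 352 and 12 exonic reads at 0, 1 and 6 h and was 27.7-fold lower (15.6 to 54.1) at 6 h than at 1 h. Egr1 had 89, 1517 and 133 reads and was 10.8-fold lower (9.00 to 12.9). Egr3 returned to its starting count, with 3, 63 and 3 reads. Egr4, at 2, 30 and 8 reads, was 3.54-fold lower (1.58 to 8.93). All 4 Egr genes had their highest count at 1 h, and at 6 h none held more than 133 reads.

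The Fos and Jun genes encode the subunits of the dimeric factor AP-1, and they did not fall to the same extent. Junb had 13, 726 and 79 exonic reads and was 8.67-fold lower (6.86 to 11.1), and Fosb had 3, 573 and 109 and was 4.96-fold lower (4.03 to 6.14). Fos had 21, 2901 and 877 reads and was 3.12-fold lower (2.89 to 3.37), so that its 6 h count still stood far above its 0 h count. Jun, which overlaps another gene on the same strand, had 268, 792 and 204 reads and ended 3.66-fold lower (3.14 to 4.29), below its own starting count. Jund had 196, 323 and 306 reads and passed in neither direction. Fosl2 was the exception among them, with 47, 357 and 1069 reads and a 3.18-fold (2.81 to 3.59) higher level at 6 h.

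Several factors of other families fell too, while Crem, described further on, was higher in exons at 6 h. Npas4, a factor of the bHLH-PAS family known for its role in inhibitory synapse formation, had 9, 802 and 163 exonic reads and was 4.64-fold lower (3.92 to 5.53). Klf4 had 2, 39 and 3 reads, Maff 1, 71 and 12, Ier2 3, 41 and 9 and Atf3 12, 43 and 18, all lower at 6 h. The orphan nuclear receptors of the Nr4a family differed from each other in exons. Nr4a1 had 0, 367 and 72 reads and was 4.81-fold lower (3.73 to 6.28). Nr4a2 had 7, 70 and 35 reads and a ratio of 0.530 (0.343 to 0.806), which missed the 2-fold rule with the main scaling and passed it with mapped reads as the scale (0.50). Nr4a3 had 5, 128 and 168 reads and a ratio of 1.39 (1.10 to 1.77), so its exonic level did not fall.

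Introns of most early factors fell as well. Of the 14 factors with enough intronic reads, 11 were lower at 6 h and 0 higher, and the median log2 ratio was -1.82 beside 0.04 over all genes compared in introns. Fosb introns had 2, 144 and 10 reads at 0, 1 and 6 h and were 17.5-fold lower (9.23 to 37.2), against the smaller exonic fall given above. Nr4a2 introns had 2, 74 and 6 reads and were 15.0-fold lower (6.56 to 42.1). Maff introns had 2, 78 and 7 reads and were 13.5-fold lower (6.26 to 34.7). For Nr4a1 the intronic counts were 1, 235 and 29, and for Fos 0, 77 and 9, falls of 9.84-fold (6.67 to 15.0) and 10.4-fold (5.19 to 23.6). In each of these genes the estimated intronic fold was larger than the exonic one with each kind of read on its own scale. For Maff this difference rests on few reads at 6 h. Introns were at least 2-fold below exons in 9 of the 14 factors, beside 8.25% of all genes compared in both. With exonic scaling for both kinds 7 were below and 1 above. Nr4a3 introns had 12, 878 and 348 reads and were 3.06-fold lower (2.70 to 3.48), while its exons held their level. With mapped reads as the scale 9 of the 14 were lower, without Nfil3 and Srf, and 1, Tsc22d1, was higher.

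**Figure D1:**
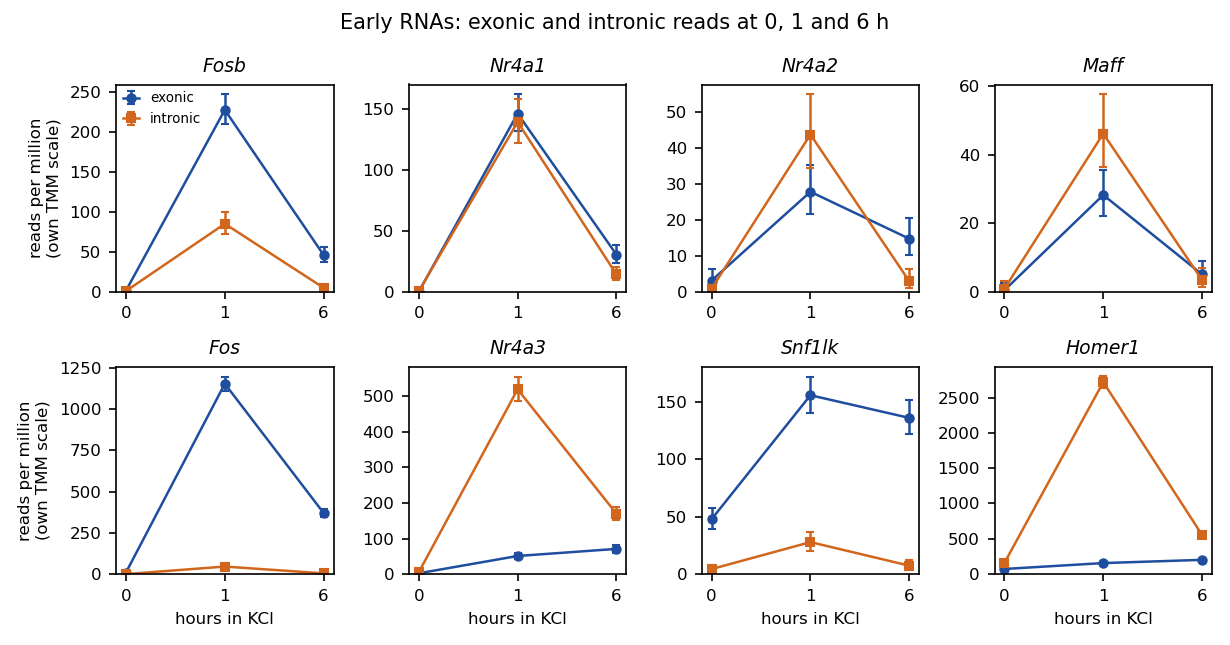
Exonic (circles) and intronic (squares) RPM on the TMM scale of each kind of read, at 0, 1 and 6 h of KCl with the times evenly spaced, for 8 early genes; error bars are exact 95% Poisson counting intervals of 1 library each. Introns peak at 1 h in all 8 panels, while the exons of Nr4a3, Snf1lk (Sik1) and Homer1 stay near or above their 1 h level at 6 h.

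The core letters of the cAMP response element (CRE), the site bound by CREB, stood in most promoters of the early factors. The letters TGACG, searched on both strands in the 300 bases from 250 before to 50 after the annotated start, were found for 18 of the 23 early factors with an entry in the RefSeq promoter table, which is 78.3%. They were found for 20 of 33 early effectors (60.6%), 10 of 22 late effectors (45.5%), 9 of 18 sterol genes (50.0%), 37.6% of all compared genes with an entry and 20.8% of all promoters of the table. The full palindrome TGACGTCA, which contains the shorter letters on both strands, was found for 1 early factor (4.35%), 7 early effectors (21.2%), 2 late effectors (9.09%) and 0 sterol genes, beside 3.92% of compared genes with an entry and 1.79% of all promoters. A match describes the letters only. The promoters of Fos, Nr4a1, Btg2 and Pcsk1 are shown because Fos, Nr4a1 and Btg2 fell in both kinds of read, and Pcsk1, described further on, rose in exons and fell in introns. They are from RefSeq on GRCm38.p6, 5′ to 3′ along the gene, with every TGACG or its reverse complement in capitals.
Fos, chr12:85473640-85473939, plus strand: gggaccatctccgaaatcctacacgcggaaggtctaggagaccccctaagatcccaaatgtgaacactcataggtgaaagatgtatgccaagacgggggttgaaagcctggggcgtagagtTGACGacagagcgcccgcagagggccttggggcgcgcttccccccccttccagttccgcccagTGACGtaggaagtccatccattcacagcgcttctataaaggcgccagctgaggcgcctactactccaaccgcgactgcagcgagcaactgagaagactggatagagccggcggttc
Nr4a1, chr15:101266596-101266895, plus strand: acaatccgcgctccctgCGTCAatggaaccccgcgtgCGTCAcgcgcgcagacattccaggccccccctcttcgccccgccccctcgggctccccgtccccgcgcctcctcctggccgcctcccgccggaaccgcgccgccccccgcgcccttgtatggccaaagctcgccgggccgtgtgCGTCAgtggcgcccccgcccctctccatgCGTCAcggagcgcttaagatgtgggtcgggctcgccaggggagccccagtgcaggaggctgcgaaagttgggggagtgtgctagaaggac
Btg2, chr1:134079106-134079405, minus strand: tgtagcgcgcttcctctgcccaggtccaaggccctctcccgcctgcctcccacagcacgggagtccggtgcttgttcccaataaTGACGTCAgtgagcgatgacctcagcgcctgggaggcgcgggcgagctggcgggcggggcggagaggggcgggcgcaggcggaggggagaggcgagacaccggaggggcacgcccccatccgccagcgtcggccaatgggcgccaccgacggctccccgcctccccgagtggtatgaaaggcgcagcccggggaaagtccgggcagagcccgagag
Pcsk1, chr13:75089607-75089906, plus strand: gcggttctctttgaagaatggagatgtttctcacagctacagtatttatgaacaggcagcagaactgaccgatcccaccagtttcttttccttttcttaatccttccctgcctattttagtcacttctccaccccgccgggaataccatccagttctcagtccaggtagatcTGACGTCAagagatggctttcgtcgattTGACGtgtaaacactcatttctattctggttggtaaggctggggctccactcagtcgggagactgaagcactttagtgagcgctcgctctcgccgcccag

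Early effectors and feedback regulators were split between decay, persistence and further rise. Of 40 on the list, 31 were compared in exons, with 6 lower, 5 higher and a median log2 ratio of -0.01. Over all compared genes 4.63% were lower and 4.17% higher. Arc, a synaptic protein that drives removal of AMPA receptors, had 27, 595 and 40 exonic reads and was 14.0-fold lower (10.2 to 19.8). Dusp1, a phosphatase that switches off MAP kinases, had 58, 573 and 80 reads and was 6.75-fold lower (5.34 to 8.65). Btg2, an anti-proliferative regulator that recruits RNA deadenylases, had 53, 345 and 43 reads and was 7.57-fold lower (5.50 to 10.6). Gadd45g had 21, 96 and 16 reads, Gadd45b 7, 52 and 11 and Cyr61 (Ccn1), a secreted matrix protein, 30, 290 and 105. Cyr61 still had 105 reads at 6 h against 30 at 0 h, while Btg2 and Gadd45g ended near their 0 h counts.

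Other feedback regulators went on rising after 1 h. Dusp4, a MAP kinase phosphatase like Dusp1, had 34, 87 and 274 exonic reads and was 3.34-fold (2.61 to 4.30) higher at 6 h. Dusp14 had 10, 11 and 51 reads and was 4.92-fold (2.53 to 10.5) higher. Rgs2, which shortens signalling by G proteins, had 147, 310 and 895 reads and was 3.06-fold (2.69 to 3.49) higher. Spry4, an inhibitor of receptor tyrosine kinase signalling, had 9, 44 and 93 reads and Lonrf3 44, 79 and 165, both higher. Within the phosphatases alone, Dusp1 fell, Dusp4 and Dusp14 rose, and Dusp6 (26, 272 and 188 reads, ratio 0.733 (0.605 to 0.886)) passed in neither direction.

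Another group kept a raised exonic level at 6 h while its introns fell. Homer1, a postsynaptic scaffold protein, had 162, 392 and 478 exonic reads, a ratio of 1.29 (1.13 to 1.48), and 362, 4593 and 1134 intronic reads, which were 4.92-fold lower (4.61 to 5.25). One of its introns held 1340 reads at 1 h and 860 at 6 h, and all its other introns together 3253 and 274, a ratio of 0.0671 (0.0591 to 0.0760). A short form of Homer1 is known to end inside an intron of the long form, and its part in the reads of that one intron was not tested. Sik1, a kinase of the CREB co-activators listed as Snf1lk, had 107, 391 and 322 exonic reads with a ratio of 0.873 (0.751 to 1.01) and 10, 47 and 15 intronic reads, which were 3.80-fold lower (2.09 to 7.32). Rheb, an activator of mTOR, had 283, 389 and 636 exonic and 147, 408 and 198 intronic reads, and Coq10b 10, 28 and 36 and 22, 125 and 27. Among early factors Klf6 (173, 629 and 493 exonic reads) and Srf (56, 194 and 151) also passed in neither direction, with Srf introns lower (9, 36 and 19 reads) except with mapped reads as the scale. Of 16 effectors compared in both kinds of read, the introns changed at least 2-fold below the exons in 11 and above in 1, where 8.25% of all 7123 genes compared in both were below and 6.94% above. With exonic scaling for both kinds the counts were 7 and 2.

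Many late secreted and synaptic effectors rose in exons, and their introns moved in both directions. Of 33 on the list, 28 were compared in exons, with a median log2 ratio of 1.07. At 6 h 15 were higher, 0 lower and 13 in neither class, beside 4.17% higher and 4.63% lower over all compared genes. As this list was chosen with earlier results of these data known, the shares describe its members and not late genes as a class. In introns 18 were compared, with 4 higher, 6 lower and a median of -0.26, which was 0.01 with mapped reads as the scale. In 8 of the 18 the introns moved at least 2-fold below the exons, beside 8.25% of all genes compared in both. That count was also 8 with exonic scaling for both kinds. With mapped reads as the scale the exonic count was 12, without Rgs20, Syt4 and Cdkn1a, of which the last overlaps another gene on the same strand. Vgf, a secreted neuropeptide precursor, had 3, 73 and 179 exonic reads at 0, 1 and 6 h and was 2.60-fold (1.97 to 3.46) higher at 6 h than at 1 h. Nptx2, a pentraxin that clusters AMPA receptors, had 29, 55 and 193 reads and was 3.72-fold (2.74 to 5.12) higher. Igf1, an insulin-like growth factor, had 68, 94 and 298 reads and was 3.36-fold (2.66 to 4.29) higher. For all 3 the 6 h library held the highest count and the 0 h library the lowest.

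Among the other members, Stac, an adaptor protein of calcium channels, had 20, 14 and 100 reads and was 7.57-fold (4.31 to 14.4) higher. Tll1, a metalloprotease that overlaps another gene on the same strand, had 27, 30 and 147 reads and was 5.20-fold (3.49 to 7.97) higher. The orphan receptors Gpr3 and Gpr22 had 6, 18 and 96 and 89, 149 and 391 reads. Crhbp, which binds corticotropin-releasing hormone, had 29, 22 and 89 reads. For Stac, Tll1 and Crhbp the 1 h count was below or near the 0 h count. Bdnf, the best known late effector in excitatory neurons, had 0, 0 and 3 exonic reads, at or under the floor of 3 reads, so its change was not detectable at this depth.

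Among genes with exonic reads at both times, the highest ratio was that of Acan, which encodes aggrecan, the main proteoglycan of the perineuronal net around interneurons. It had 8, 5 and 439 exonic reads and was 93.1-fold (39.6 to 288) higher at 6 h. Of 40 genes of the extracellular matrix and perineuronal net, 39 were matched and 27 compared, with 6 higher and 0 lower. The shares over all compared genes were 4.17% and 4.63%. Col10a1, a short-chain collagen, had 2, 5 and 80 reads and was 17.0-fold (6.98 to 53.7) higher. Ctgf (Ccn2), a secreted matrix protein, had 14, 39 and 224 reads and Has3, a hyaluronan synthase, 55, 75 and 191. Prss23, a secreted protease, had 0, 6 and 40 reads and Tnc, tenascin C, 37, 26 and 50. Tnc no longer passed with mapped reads as the scale (1.92). Ctgf differs from its relative Cyr61, given above, in that one rose from 1 h to 6 h and the other fell.

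Peptides and channels rose in part. Of 12 compared neuropeptide genes, 3 were higher and 0 lower, beside 4.17% and 4.63% of all compared genes. Pthlh, a parathyroid hormone-like peptide, had 12, 8 and 176 exonic reads and was 23.3-fold (11.6 to 54.9) higher. Pnoc, the nociceptin precursor, had 41, 57 and 341 reads and was 6.34-fold (4.78 to 8.55) higher, and Cartpt had 0, 5 and 21. The interneuron peptides Sst and Npy had 1146, 1414 and 1841 and 96, 123 and 162 reads, with ratios of 1.38 (1.29 to 1.48) and 1.40 (1.10 to 1.78).

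Of 25 compared voltage-gated potassium channel genes, 7 were higher and 0 lower, beside 4.17% and 4.63% of all compared genes. Kcns2 and Kcnf1 encode subunits that modify other channels and form none alone. Kcns2 had 55, 60 and 328 reads and was 5.80-fold (4.39 to 7.77) higher, and Kcnf1 had 35, 63 and 244 and was 4.11-fold (3.10 to 5.51) higher. Kcna4, a subunit of fast inactivating channels, had 40, 39 and 179 reads and was 4.87-fold (3.43 to 7.07) higher, and Kcna1 had 99, 86 and 248. Kcnq3 and Kcnq5, subunits of the slow M current, had 19, 11 and 51 and 19, 15 and 39 reads. Of the 7, Kcnf1 had more reads at 1 h than at 0 h, Kcns2 a count near its 0 h one, and the other 5 fewer. These counts are not scaled, and the effective exonic library size was larger at 1 h than at 0 h.

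In other classes of membrane proteins few genes passed, where 4.17% of all compared genes were higher and 4.63% lower in exons. Of 22 compared sodium and calcium channel genes 2 were higher and 1 lower: Scn1a, which overlaps another gene on the same strand (351, 434 and 853 reads, 2.08-fold (1.85 to 2.34) higher, 1.96 with mapped reads as the scale), Cacnb2 (47, 28 and 71 reads) and, lower, Cacna1d (203, 196 and 69 reads, 2.68-fold lower (2.03 to 3.58)). Of 21 genes of GABA synthesis, transport and reception 0 passed, with a median log2 ratio of 0.35, and of 29 glutamate receptor and scaffold genes only Grin2a was higher (26, 25 and 53 reads). Among 20 receptors for peptides and amines, 3 were higher and 2 lower. Sstr2, a somatostatin receptor, had 7, 37 and 127 reads and was 3.64-fold (2.51 to 5.40) higher. Tacr3 (8, 16 and 47 reads) and Npy1r (11, 14 and 37) were higher, and Npy2r (50, 54 and 19) and Adra2a (46, 41 and 18) lower. Npy1r and Npy2r, both receptors of neuropeptide Y, thus moved in opposite directions.

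**Figure D2:**
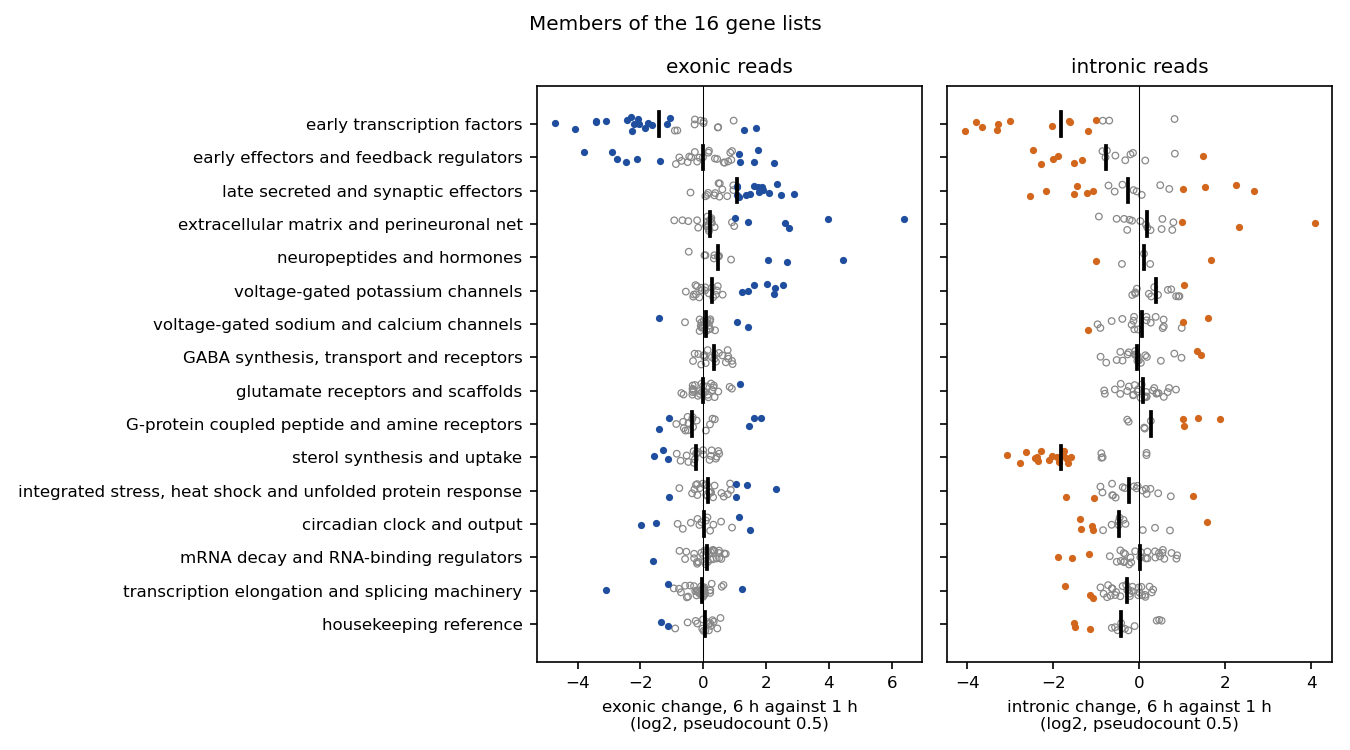
Each point is a member of 1 of the 16 gene lists, placed by its log2 ratio of scaled reads at 6 h to 1 h (exonic left, intronic right, pseudocount 0.5 reads); filled points passed the 2-fold rule, open points did not, and bars are list medians. The early factors lie to the left in both panels, the late effectors to the right in exons, and the sterol genes to the left in introns alone.

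Other genes were named for the size of their exonic rise alone. Kitl, the ligand of the Kit receptor, had 28, 27 and 183 exonic reads and was 7.19-fold (4.78 to 11.2) higher at 6 h. Cacng5, a partner of AMPA receptors and calcium channels, had 23, 22 and 219 reads and was 10.6-fold (6.80 to 17.2) higher. Chst15, a chondroitin sulfotransferase listed as 4631426J05Rik, had 77, 69 and 409 reads and was 6.29-fold (4.86 to 8.23) higher. Slc7a1, a carrier of cationic amino acids, had 261, 187 and 848 reads and was 4.81-fold (4.10 to 5.66) higher. Tagln, an actin-binding protein, had 4, 0 and 29 reads. With the floor of 3 reads in place of 0, its rise was 10.3-fold. Rerg (7, 8 and 80 reads), Sv2c (29, 25 and 152), Calcrl (5, 8 and 66), Eps8 (95, 119 and 542) and Tmem200a, listed as C030003D03Rik (106, 78 and 422), rose as well. Baz1a (3, 2 and 32) and St18 (7, 2 and 32) also passed, each from 2 reads at 1 h, with ratios of 17.0 (4.33 to 146) and 17.0 (4.33 to 146).

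Some genes named for the size of their exonic fall were on no early list. Pfn4 had 25, 33 and 3 exonic reads, Mks1 12, 21 and 1, Mcm8 25, 37 and 4, Iqcg 16, 20 and 1, Tmem179b (1810059G22Rik) 11, 30 and 2 and Tra2b, a splicing factor listed as Sfrs10, 8, 31 and 3. LOC668604 had 1, 42 and 0 reads. With the floor of 3 reads in place of 0, its fall was 13.2-fold. Among these, Sfrs10 was raised from 8 to 31 reads before it fell, while the counts of Pfn4, Mcm8 and Iqcg at 0 h and 1 h were close. All rest on 20 to 42 reads at 1 h, and their intervals are wide.

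The change in introns and the change in exons went together for some genes and apart for others. Of the 7123 genes compared in both, 102 were higher in both, 45 lower in both, 12 higher in exons and lower in introns, and 13 the reverse. A further 193 were higher and 158 lower in exons with introns in neither class, and 366 and 330 were higher and lower in introns alone. Over the 7123 genes, the introns moved at least 2-fold above the exons in 494 (6.94%) and below them in 588 (8.25%). With 1 scale for both kinds of read these counts were 1144 and 266, as introns then shift by 0.36 on the log2 scale. A gene such as Acan rose in both, with 2, 6 and 133 intronic reads, 18.3-fold (8.17 to 50.7) higher at 6 h. Svil, an actin-bundling protein, had 37, 31 and 132 exonic and 86, 80 and 621 intronic reads, Nrp1, a semaphorin receptor, 98, 98 and 338 and 273, 197 and 978, and Hdac9, a histone deacetylase, 256, 278 and 884 and 634, 514 and 2240. For Svil the intronic ratio was 6.40 (5.06 to 8.18) and the exonic one 4.52 (3.03 to 6.91).

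**Figure D3:**
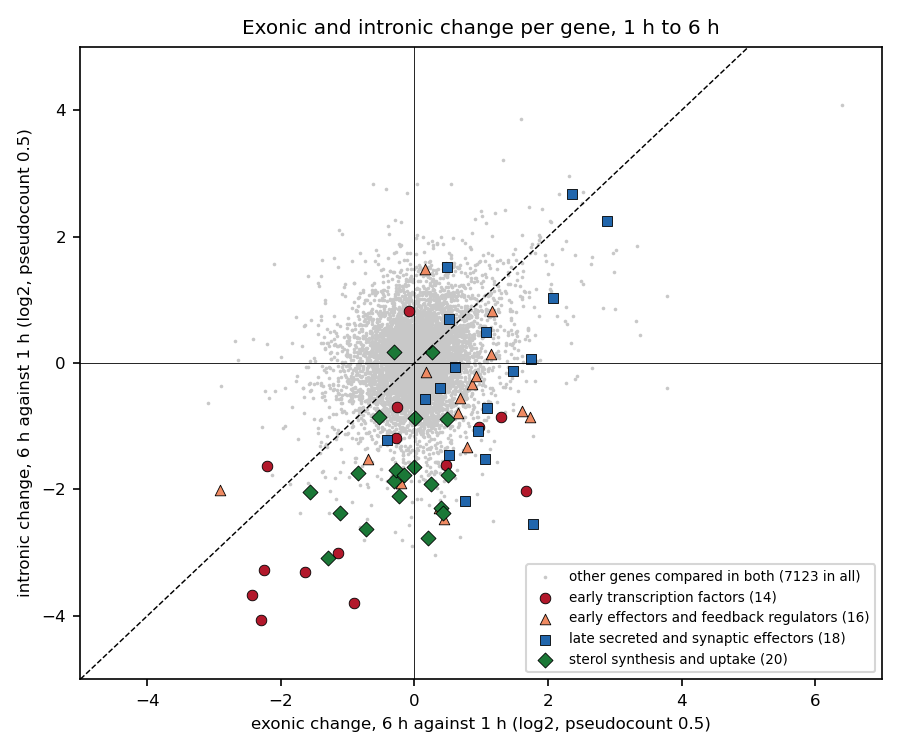
Exonic (x) against intronic (y) log2 ratio of scaled reads, 6 h to 1 h with a pseudocount of 0.5 reads, for the 7123 genes compared in both; the dashed line marks equal change and coloured symbols mark 4 lists. Early factors and sterol genes lie mostly below the dashed line, with 9 of 14 and 14 of 20 called intronic below exonic. With exonic scaling for both kinds of read the counts were 7 and 13.

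The genes named for their intronic rise mostly rose in exons as well. Met, the receptor of hepatocyte growth factor, had 23, 3 and 61 intronic reads and was 16.8-fold (5.47 to 83.5) higher, beside 44, 42 and 120 exonic reads. Tmem255a, listed as 6430550H21Rik, had 15, 13 and 151 intronic and 80, 93 and 220 exonic reads. Tll1 introns had 88, 58 and 452 reads, Klhl4 introns 22, 10 and 99 and Nrp1 introns the values above. Tec, a tyrosine kinase, had 11, 0 and 30 intronic reads, 8.24-fold higher at 6 h than at 1 h with the floor in place of 0. Its exonic reads, 0, 0 and 4, were too few to compare. In all of these the 1 h count was below or near the 0 h count, an order that naming genes for a rise from 1 h favours.

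Most of the 12 genes that rose in exons while their introns fell also had fewer intronic reads at 0 h than at 1 h. The 12 were named after their values were seen, except where the naming rule chose them. Pcsk1, the prohormone convertase that cuts neuropeptide precursors, had 20, 544 and 113 intronic reads at 0, 1 and 6 h, 5.84-fold lower (4.76 to 7.22) at 6 h than at 1 h. Its exonic reads were 28, 63 and 204, 3.43-fold (2.58 to 4.63) higher. Fosl2 had 8, 376 and 112 intronic and 47, 357 and 1069 exonic reads. Its ratio of intronic to exonic change was 0.0773 (0.0601 to 0.0991), and that of Pcsk1 0.0498 (0.0346 to 0.0716). Both genes had their highest intronic count at 1 h and their highest exonic count at 6 h. The order between 1 h and 6 h was fixed by how the 12 were picked. The 0 h counts were not used, but the 1 h counts beside them were. A pick of high 1 h introns favours fewer intronic reads at 0 h, so that order is no separate support.

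Most other members of these 12, picked by the same order from 1 h to 6 h, also had fewer intronic reads at 0 h than at 1 h. Peg10, an imprinted gene derived from a retrotransposon, had 6, 58 and 12 intronic and 194, 320 and 680 exonic reads. Mest, also imprinted, had 84, 268 and 96 intronic and 596, 764 and 1457 exonic reads. Hsd17b12, an enzyme of fatty acid elongation, had 114, 876 and 475 intronic and 179, 240 and 773 exonic reads, with an intronic ratio of 0.54 with mapped reads as the scale. Peli1, a ubiquitin ligase, had 260, 1175 and 554 intronic and 205, 297 and 614 exonic reads. Syt4, a synaptotagmin of dense-core vesicles, had 27, 135 and 57 intronic and 753, 1168 and 2301 exonic reads, and its exonic ratio was 1.96 with mapped reads as the scale. Heca, BC065085 and Tmepai (Pmepa1) were of the same kind, while D0Kist2 had 373, 237 and 137 and Nfatc2 44, 45 and 23 intronic reads. For D0Kist2 the intronic call was lost without its most covered intron, with a ratio of 0.94. Crem and Nfil3 came close to the same pattern: Crem had 29, 53 and 123 exonic and 77, 147 and 99 intronic reads, and Nfil3 50, 98 and 181 and 36, 168 and 101. Zdbf2 (4930431J08Rik) and Ddx3y, which overlaps another gene on the same strand, were among the 6 genes with introns farthest below exons, at 0.123 (0.0948 to 0.159) and 0.0901 (0.0502 to 0.158).

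**Figure D4:**
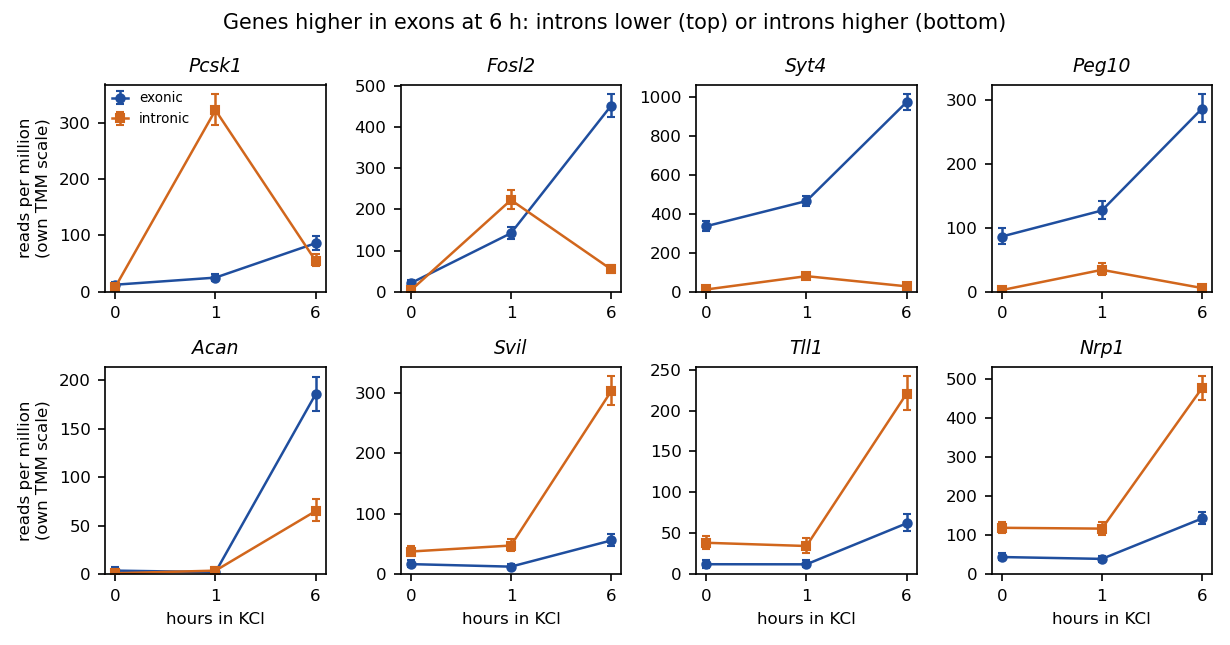
Exonic (circles) and intronic (squares) RPM on the TMM scale of each kind of read at 0, 1 and 6 h with the times evenly spaced, for 8 genes higher in exons at 6 h; bars are exact 95% Poisson counting intervals of 1 library each. In the top row introns peak at 1 h and exons at 6 h, while in the bottom row both are highest at 6 h.

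The reverse pattern, exons lower and introns higher, was found in genes that mostly had few reads. Dguok, a mitochondrial nucleoside kinase, had 44, 47 and 16 exonic and 80, 23 and 68 intronic reads, and the introns changed 6.75-fold (3.04 to 15.2) above the exons. Mrps18b, a protein of the mitochondrial ribosome, had 13, 29 and 6 exonic and 15, 6 and 23 intronic reads, and Gtf2e1, a subunit of the general factor TFIIE, 59, 89 and 38 and 22, 4 and 23. Tmem169 had 80, 106 and 43 and 31, 9 and 36. Xpo5, which exports microRNA precursors, had 254, 284 and 126 exonic and 54, 23 and 60 intronic reads. In each of these 5 the introns were also lower at 1 h than at 0 h. The order from 1 h to 6 h was fixed by the pick. A pick of low 1 h introns also favours the order from 0 h to 1 h, which is no separate support. Fbxo18 (Fbh1), a DNA helicase, had 318, 362 and 135 exonic reads, 2.53-fold lower (2.07 to 3.10), and 183, 53 and 125 intronic reads with a ratio of 1.94 (1.40 to 2.73). Lace1 (Afg1l) had 30, 44 and 6 exonic and 112, 44 and 68 intronic reads.

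Genes of sterol synthesis and uptake fell in introns and mostly kept their level in exons. The pathway makes cholesterol from acetyl-CoA, and its genes are controlled together by SREBP factors, which the Insig proteins hold back. Of 26 genes, 22 were compared in introns, and 17 were lower at 6 h and 0 higher, with a median log2 ratio of -1.82. In exons 22 were compared, 3 were lower and 0 higher, with a median of -0.22. The summed intronic level was 565, 2990 and 729 RPM at 0, 1 and 6 h, and the summed exonic level 2216, 3671 and 3280. Boundary reads of the list numbered 46, 192 and 62, and splice reads 528, 864 and 710. The intronic calls did not rest on single introns: without the most covered intron of each gene, 18 members were compared and 18 were lower. With mapped reads as the scale 17 were lower as in the main scaling. Introns were thus high at 1 h and near the 0 h level at 6 h, whereas exons stayed near their 1 h level.

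Single members differed in their exonic course. Lss, lanosterol synthase, had 72, 305 and 54 intronic reads, 6.86-fold lower (5.12 to 9.33), and 124, 207 and 224 exonic reads. Sqle, squalene epoxidase, had 34, 214 and 50 intronic and 336, 570 and 723 exonic reads, and Cyp51, the lanosterol demethylase, 98, 647 and 160 and 571, 1279 and 1593, both with their highest exonic count at 6 h. Sc4mol (Msmo1), a methyl sterol oxidase, had 80, 499 and 140 intronic and 278, 751 and 606 exonic reads. Among the 3 genes that fell in exons were Stard4, a sterol carrier (97, 308 and 118 exonic reads, 2.46-fold lower (1.98 to 3.07)) and Insig1, the feedback inhibitor (142, 347 and 151 reads, 2.17-fold lower (1.79 to 2.64)). Introns of both fell too, from 205 to 29 and from 313 to 73 reads. Hmgcs1 and Idi1 had 0 exonic reads in every library although introns of Idi1, which overlaps another gene on the same strand, had 39, 232 and 52 reads. Srebf2, Srebf1 and Insig2 passed in neither kind of read.

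**Figure D5:**
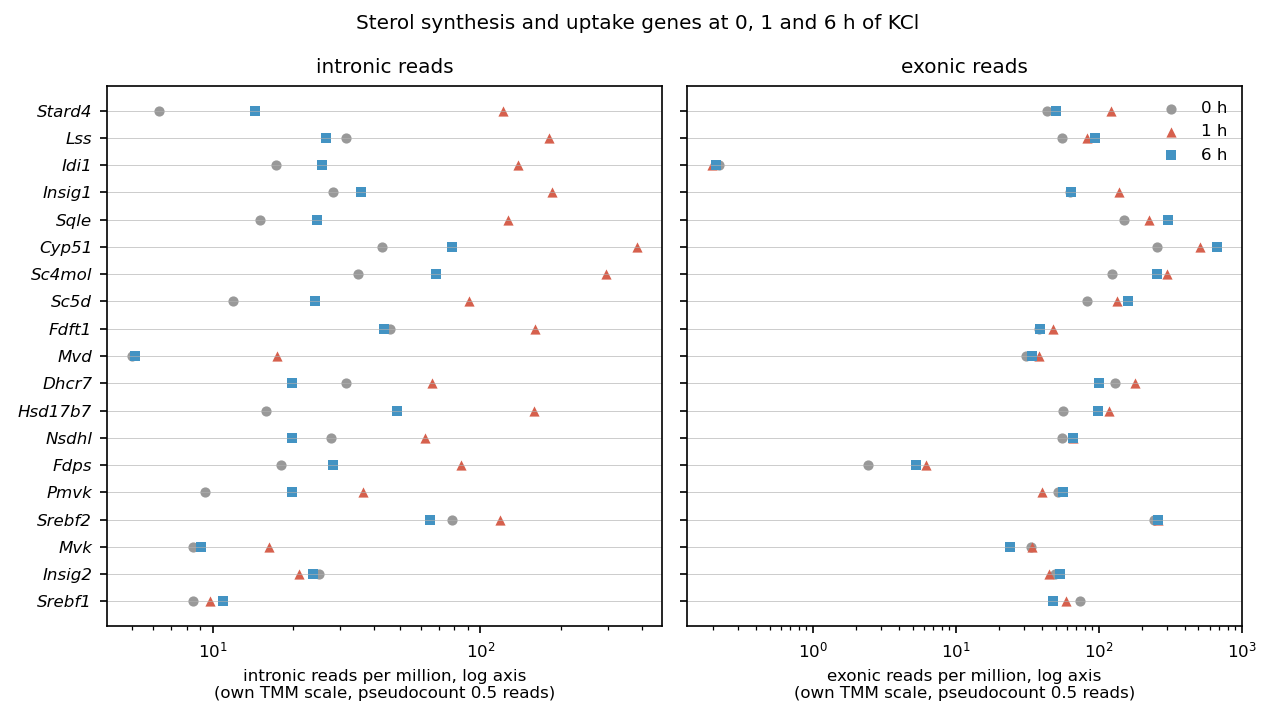
Intronic (left) and exonic (right) RPM on the TMM scale of each kind of read, log axis with a pseudocount of 0.5 reads, at 0 h (circles), 1 h (triangles) and 6 h (squares) for 19 of the 22 sterol genes compared in introns. In the left panel the 1 h value lies to the right of both others for 17 of these 19 genes, and Insig2 and Srebf1 are the exceptions.

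The promoters of this list shared a short letter string. CCAAT, the core of the site bound by NF-Y, a partner of SREBP at many sterol genes, was found on either strand in 18 of the 18 members with a promoter entry. It was found in 37.4% of all promoters of the table, in 41.1% of its genes and in 43.3% of compared genes with an entry. A form of the sterol element, TCACNCCAC, was found in 1 member, Hmgcs1, and 1.24% of all promoters. The promoters of 4 genes are shown because their genes were among those whose introns fell, from RefSeq on GRCm38.p6 and 5′ to 3′ along the gene, with CCAAT or its reverse complement in capitals.
Lss, chr10:76531355-76531654, plus strand: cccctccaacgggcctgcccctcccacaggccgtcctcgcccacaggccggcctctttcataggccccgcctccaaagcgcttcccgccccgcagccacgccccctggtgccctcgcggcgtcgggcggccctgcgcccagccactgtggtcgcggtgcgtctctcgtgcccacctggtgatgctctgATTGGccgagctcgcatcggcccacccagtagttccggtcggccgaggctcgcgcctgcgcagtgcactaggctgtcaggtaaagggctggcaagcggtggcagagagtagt
Cyp51, chr5:4104648-4104947, minus strand: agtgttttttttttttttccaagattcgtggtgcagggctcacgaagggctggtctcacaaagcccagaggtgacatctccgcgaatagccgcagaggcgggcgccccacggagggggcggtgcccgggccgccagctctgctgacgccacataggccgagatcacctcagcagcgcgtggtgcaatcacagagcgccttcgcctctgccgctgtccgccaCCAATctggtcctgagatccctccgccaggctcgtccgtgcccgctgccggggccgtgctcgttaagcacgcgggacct
Idi1, chr13:8885356-8885655, plus strand: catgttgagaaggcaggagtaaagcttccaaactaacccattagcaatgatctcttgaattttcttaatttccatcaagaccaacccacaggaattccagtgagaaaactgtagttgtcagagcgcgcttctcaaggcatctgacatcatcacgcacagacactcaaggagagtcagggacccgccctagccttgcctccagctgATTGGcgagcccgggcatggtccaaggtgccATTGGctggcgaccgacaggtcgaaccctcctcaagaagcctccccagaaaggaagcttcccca
Insig1, chr5:28071162-28071461, plus strand: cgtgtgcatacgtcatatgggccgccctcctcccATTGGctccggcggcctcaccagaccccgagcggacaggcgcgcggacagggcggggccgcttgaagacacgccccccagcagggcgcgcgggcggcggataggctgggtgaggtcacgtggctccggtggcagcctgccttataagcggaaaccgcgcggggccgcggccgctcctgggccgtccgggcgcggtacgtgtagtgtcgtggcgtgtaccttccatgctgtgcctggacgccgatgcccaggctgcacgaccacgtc

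Stress, clock and RNA-processing genes changed in small numbers. Of 30 compared genes of the integrated stress, heat shock and unfolded protein responses, 4 were higher and 1 lower in exons. The shares over all compared genes were 4.17% and 4.63%. Chac1, which degrades glutathione, had 35, 56 and 264 reads and was 5.00-fold (3.73 to 6.79) higher, and Asns, asparagine synthetase, had 356, 428 and 1063 and was 2.63-fold (2.35 to 2.95) higher. Both are known targets of Atf4, which had 386, 1012 and 1186 exonic and 10, 33 and 12 intronic reads. Sesn2 (108, 95 and 184 reads) and Sdf2l1 (13, 12 and 24) were also higher but fell under 2-fold with mapped reads as the scale. Dnajb1, a heat shock co-chaperone, was lower, with 107, 388 and 172 reads.

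Of 16 compared clock genes, Arntl, which overlaps another gene on the same strand (54, 39 and 105 exonic reads), and Rorb (31, 38 and 80) were higher, and Dbp (27, 31 and 7) and Per3 (47, 37 and 12) lower. Per1 and Per2, which respond to CREB in clock neurons, passed in neither direction in exons, with 102, 298 and 258 and 11, 41 and 45 reads, while their introns fell (14, 56 and 32 and 23, 76 and 36), with Per1 introns at 0.57 and no longer called with mapped reads as the scale. Of 32 regulators of RNA decay, 1 passed in exons: Tob1, which recruits deadenylases, had 114, 386 and 120 reads and was 3.03-fold lower (2.47 to 3.76). Of 36 genes of elongation and splicing, Ell2, an elongation factor, was higher (33, 43 and 95 reads), and Polr2a, the largest subunit of RNA polymerase II, was lower (342, 302 and 131 reads, 2.17-fold lower (1.77 to 2.69)), beside Sfrs10 given above. Among 19 compared housekeeping genes 2 were lower, among them Gusb (20, 33 and 12 reads), and 0 higher. Beside these exonic counts of clock, RNA decay, elongation, splicing and housekeeping genes, 4.17% of all compared genes were higher and 4.63% lower. Of 14 housekeeping genes compared in introns, 3 were lower, beside 5.79% of all genes compared in introns, and the median log2 ratio was -0.41. With mapped reads as the scale 2 were lower, without Ywhaz.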

How the data were processed

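RNA was Trizol total RNA depleted of ribosomal RNA and sequenced with strand on an ABi SOLiD instrument, per the labels' protocols. The labels' size selection leaves few short RNAs, and capped 5′ ends are not captured. The deposited values were raw counts per gene of sense exonic, intronic, splice and boundary reads, made by the authors per the counting logs from unique 35-base reads with up to 3 mismatches on mm9 RefSeq genes, with repeated reads kept. For the aligner, the sources used here name none. The authors' deposited coverage signal, normalised to 10000000 reads, served as an alternative. Exonic and intronic counts were each scaled by TMM (edgeR 4.0.16, R 4.3.3) over the 3 libraries. Ratios have exact Clopper-Pearson 95% intervals, and intronic against exonic change has an exact conditional interval of the odds ratio (scipy 1.17.1). Intervals and the floor of 3 reads cover counting error only, and repeated reads are not independent molecules. Called genes had at least 20 reads in 1 of the 2 libraries, a ratio of at least 2 or at most 0.5, and an interval excluding 1. RPM values are not per length, so levels are not compared between genes. List medians use a pseudocount of 0.5 reads. The ratio code was tested on simulated data.

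The members and lists were chosen with earlier results of these data known. Of 595 list entries 592 were matched, 14 of them by gene identifier. Named genes were the 20 in each direction with the exonic bound nearest to 1 farthest from it, 10 in each for introns and 6 in each for intronic against exonic change, the extreme and up to 6 called members of each list, and 34 fixed genes. Other members are given as counts, and some genes that meet the rule are not reported here. Promoters are from RefSeq on GRCm38.p6, matched by symbol or identifier. Alternatives were other scalings (total reads, mapped reads, DESeq2 1.42.0 size factors), read minimums, a fold of 3, genes without overlap, and introns without the most covered one.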

Additional observations from a re-analysis of the deposited data

Results flagged for a closer look

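Reads on the strand opposite to annotated exons were used in no comparison above. Among 250 genes with at least 20 such reads at 1 h or 6 h, 9 differed at least 4-fold between these libraries, scaled by mapped reads, and stood above the 0 h library. Ovca2 had 4, 185 and 21 antisense reads at 0, 1 and 6 h, beside 47, 68 and 40 sense exonic reads. Akap9 had 9, 59 and 6 antisense reads and Ica1l 9, 22 and 1, so these 3 were high at 1 h. The other 6 were high at 6 h. Antisense reads were 4, 5 and 36 for 2310028N02Rik, 6, 0 and 29 for Anapc2, and 6, 5 and 35 for BC004853, which had 0 sense exonic reads. They were 4, 3 and 26 for LOC100040851, 6, 2 and 20 for Pigf, and 13, 5 and 28 for Spsb3. Neighbouring genes on the opposite strand as a source of these reads were not tested.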

How the results depend on the processing

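No named gene was called in opposite directions under the scalings run, but the balance of calls turned in several settings, and the cause was not tested. Exonic calls, with more lower than higher genes in the report, numbered 143 higher and 118 lower at a fold of 3, and 294 and 229 with a minimum of 50 reads. Intronic calls were 1200 higher and 205 lower with exonic scaling, 995 and 246 with mapped reads, 311 and 241 with a minimum of 50, and 151 and 141 at a fold of 3. Intronic against exonic calls were 1144 above and 266 below with exonic scaling for both or mapped reads for both, and 209 and 365 with a minimum of 50. Of 140 named genes compared in exons, called or not, 7 lost their call with mapped reads and 3 gained one. Of 86 compared in introns, 4 lost their call and 4 gained one. Size factors by median of ratios changed none of these calls. Leaving out each gene's most covered intron, and mapped reads for both kinds, were chosen after seeing the data. The former gave 376 higher and 408 lower intronic calls, which turned the balance, and 249 and 228 of them were also called with all introns. Of 40 list medians, 6 changed sign with mapped reads, 4 with total reads and 0 with a pseudocount of 2. No paired analysis was possible because each time had 1 library, and for the same reason no replicate could be left out. Genes with under 20 reads in both libraries, such as Bdnf, were not compared, and whether depth or low expression set their counts was not tested.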

Other observations

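Several gene families outside the lists were described after their values were seen, so their counts support nothing. Over all compared genes 4.17% were higher and 4.63% lower in exons, and 7.07% and 5.79% in introns. Of 18 genes of intraflagellar transport and the Bardet-Biedl complex, which build and serve the primary cilium, 17 were compared in exons, with 6 lower at 6 h (Bbs2, Bbs7, Ift81, Ift88, Ift122 and Ift140) and 1 higher (Bbs5). In introns 15 were compared, with 0 lower and 2 higher (3 with mapped reads as the scale). Of 17 mitochondrial aminoacyl-tRNA synthetases, which charge tRNAs inside mitochondria, 4 were lower in exons (among them Cars2, Ears2 and Rars2), with a median log2 ratio of -0.56. Of the 20 cytosolic synthetases 0 were lower and 2 higher (Iars and Tars; 1 with mapped reads as the scale), with a median of 0.26. Of 75 mitochondrial ribosomal protein genes, 64 were compared in exons with 4 lower (6.25%, near the share over all genes) and 0 higher. In introns 25 were compared with 7 higher (28.0%) and 0 lower, and 12 were higher with mapped reads as the scale, which raises this share over all genes as well.

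Some genes of fatty acid synthesis, elongation, desaturation and activation fell in introns. Of 16 compared in introns 7 were lower at 6 h (Scd1, Scd2, Elovl5, Acsl4, Fasn, Acly and Fads2) and 0 higher, with a median log2 ratio of -0.86. Elovl5 introns had 110, 423 and 145 reads at 0, 1 and 6 h, whereas Acaca introns had 394, 268 and 237. In exons 19 were compared, with 0 called in either direction and a median of 0.03, or -0.07 with mapped reads as the scale.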
